A study of Mus musculus with 16 samples.

Results

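Antigen presentation and interferon response genes were examined as 46 named mouse genes in an ATAC-seq comparison of GFP-high and GFP-neg small cell lung cancer (SCLC) cells. ATAC-seq marks open chromatin by the sites that a transposase can reach. The comparison comes as a list of peaks more open in GFP-high cells (opened peaks) and a list of peaks less open in them (closed peaks). A peak was given to a member gene when the nearest protein-coding transcription start site to its centre was that gene's, with no use of the peak's list or size. This gave 188 peaks of the 80367 listed, and 42 of the 46 members had at least 1. Of all 21840 protein-coding genes with a start site used, 66.8% had one.

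The mice carried floxed tumor suppressor alleles (Rb fl/fl, p53 fl/fl and also p130 fl/fl) with a Hes1 GFP/+ reporter allele, and their lung tumors arose after Ad-CMV-Cre was given to the airway. The CMV promoter does not restrict Cre to a cell type, and both populations carry the same alleles. GFP reports Hes1, a Notch target gene, so GFP-high cells are the Notch-active, non-neuroendocrine (non-NE) cells and GFP-neg cells the neuroendocrine (NE) cells of the same tumors. Each population gave 4 libraries from 3 mice, 1 of which gave 2 pairs, and tumors of a mouse were pooled before sorting for cells without CD45, CD31 and TER-119 and with CD24. Each library was run on 2 lanes, giving 16 runs.

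The lists keep only peaks that passed the authors' limits and hold no value per library. The authors' fold changes, standard errors and p-values for each peak are their own comparison and were set aside. Depth per library is not given, no test over samples was made here, and a member without a listed peak may be open in both populations or in neither. In sorted populations, a region open in more cells and a region more open in each cell cannot be told apart. The values below are positions, list membership and the authors' mean normalized read count over all libraries, called the mean count. Shares carry 95% Wilson intervals, which cover counting error only, and peaks of 1 gene are not independent of each other.

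The labels could be checked against marker genes. The 8 neuroendocrine markers had 60 closed and 11 opened peaks (15.5% opened, against 50.8% of all listed peaks). All 11 of their promoter peaks were closed, although Chga had more opened (8) than closed (6) peaks. The 4 club cell and Hes1 markers had 46 opened and 14 closed peaks (76.7% opened). Hes1 gave 26 of these opened and 11 of these closed peaks. It cannot check the labels, because the cells were sorted on its reporter. The club genes were Scgb1a1 (12 opened, 3 closed), Scgb3a2 (3 and 0) and Cyp2f2 (5 and 0). Leukocytes express many of the member genes, so their markers matter here. Of 17 leukocyte markers, 8 had no listed peak (47.1%, against 33.2% of protein-coding genes). The others had 17 opened and 12 closed peaks together (58.6% opened, against 50.8% of all listed peaks). An opened promoter peak was found at 1 of the 17 (Cd68, 5.88%, against 26.6% of protein-coding genes) and a closed one at 1 (Coro1a). Ptprc, which encodes the CD45 used for the sort, had 11 opened and 5 closed peaks and no listed promoter peak. The 9 endothelial markers had 21 opened and 63 closed peaks (25.0% opened) and the 9 fibroblast markers 12 and 20 (37.5% opened). The part of such cells in the values below was not tested.

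MHC class I molecules show peptides from inside the cell to cytotoxic T cells. The immunoproteasome cuts proteins into peptides, Tap1 and Tap2 carry them into the endoplasmic reticulum, and tapasin, calreticulin and Pdia3 help load them on the heavy chain, which pairs with beta-2 microglobulin. Type I and type II interferons bind their receptors, activate Jak kinases and STAT proteins, and raise these genes through IRF and STAT sites in their promoters. NE SCLC cells are known for low surface MHC class I.

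The DNA under the opened promoter peaks is shown first because it carries the motif result given later. A promoter peak is one whose centre lies within 1 kb of the start site. The IRF repeat was searched as GAAANNGAA and the STAT site as TTCNNNGAA, on both strands and with N as any base, and the 2 patterns can overlap. Capitals mark the matched letters, each window reads 5′ to 3′ along the gene's strand in GRCm38 (mm10), and windows in exons were kept to 30 bases or fewer. These 10 windows hold an IRF repeat in an opened promoter peak of a class I, proteasome or effector gene, or of Trim25:
Tap1 (chr17:34186975-34187023, + strand): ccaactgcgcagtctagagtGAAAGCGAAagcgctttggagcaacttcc
Tapbp (chr17:33919628-33919656, + strand): ttagaagGAAAATGAAAGTGAAaggggaa
H2-K1 (chr17:33999595-33999643, - strand): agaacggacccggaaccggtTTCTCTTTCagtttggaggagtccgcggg
H2-D1 (chr17:35263738-35263786, + strand): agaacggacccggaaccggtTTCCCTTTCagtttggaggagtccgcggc
Psmb8 (chr17:34198336-34198364, + strand): tactgtggctTTCGCTTTCacttccttgt
Psmb10 (chr8:105938164-105938192, - strand): caaagacGAAAGTGAAAGAGAAgatgcac
Isg15 (chr4:156200856-156200916, - strand): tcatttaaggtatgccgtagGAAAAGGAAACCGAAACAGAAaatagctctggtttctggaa
Gbp2 (chr3:142620595-142620623, + strand): ctcttttagtTTCACTTTCactgtcttaa
Parp14 (chr16:35871423-35871452, - strand): gggatTTCCAGGAAatGAAAGCGAAagaag
Trim25 (chr11:88999384-88999412, + strand): gcccctcctgTTCAGTTTCgattccttcc

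The Isg15 window holds 3 overlapping repeats centred 68 bp upstream of the start, those of Tapbp and Psmb10 hold 2, and the Parp14 window joins a repeat to a STAT site. The H2-K1 and H2-D1 windows lie in introns and are identical at 47 of 49 bases, so reads from these class I copies can be hard to tell apart. A further 8 windows hold a STAT site in an opened promoter peak:
H2-D1 (chr17:35262662-35262710, + strand): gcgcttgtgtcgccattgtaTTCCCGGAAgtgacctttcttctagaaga
Psmb8 (chr17:34197706-34197754, + strand): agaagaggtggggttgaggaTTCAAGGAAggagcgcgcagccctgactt
Irf1 (chr11:53769904-53769952, + strand): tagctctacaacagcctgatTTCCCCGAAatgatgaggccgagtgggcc
Irf8 (chr8:120736167-120736233, + strand): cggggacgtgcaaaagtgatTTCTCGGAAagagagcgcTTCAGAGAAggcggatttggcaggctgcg
Irf9 (chr14:55604114-55604142, + strand): accacgtggtTTCTAGGAAatgcacctcc
Socs1 (chr16:10785961-10786009, - strand): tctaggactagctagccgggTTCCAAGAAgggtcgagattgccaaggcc
Socs3 (chr11:117969219-117969267, - strand): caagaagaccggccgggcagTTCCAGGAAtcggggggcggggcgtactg
Tlr3 (chr8:45411259-45411307, - strand): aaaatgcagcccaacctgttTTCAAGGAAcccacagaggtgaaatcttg

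These STAT windows include transcription factors that interferon signalling raises (Irf1, Irf8, Irf9) and both SOCS genes, whose products block Jak kinases. Outside promoters, 5 windows come from distal opened peaks with high mean counts for their gene:
Irf1 (chr11:53762972-53763020, + strand): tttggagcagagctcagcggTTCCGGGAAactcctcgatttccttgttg
Irf1 (chr11:53763016-53763064, + strand): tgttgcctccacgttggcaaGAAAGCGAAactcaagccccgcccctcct
Tap2 (chr17:34218922-34218994, + strand): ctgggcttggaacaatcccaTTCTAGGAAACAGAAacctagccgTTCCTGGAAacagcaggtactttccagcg
Rsad2 (chr12:26460243-26460291, - strand): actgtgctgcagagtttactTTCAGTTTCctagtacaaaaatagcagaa
Ifit3 (chr19:34569206-34569254, + strand): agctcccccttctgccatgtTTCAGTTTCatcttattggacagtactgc

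Most peaks of the member genes were opened. Of the 188, 141 were opened and 47 closed, an opened share of 75.0% (68.4 to 80.6%), beside 50.8% of all 80367 listed peaks. By gene, 22 members had opened peaks only, 18 had both kinds, 2 had closed peaks only and 4 had none. Among all protein-coding genes, 24.6% had opened peaks only and 14.5% closed peaks only. Counting each gene once gave a mean opened share of 79%. The same mean over all protein-coding genes was not computed, and the 50.8% counts peaks, so the 79% has no background here.

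Promoter peaks were all opened. The members had 36 promoter peaks, all 36 opened, while 74.3% of the 10356 listed promoter peaks were opened. The interval for the members' share was 90.4 to 100%. Opened promoter peaks belonged to 26 of the 46 members (56.5%, 42.2 to 69.8%), against 26.6% of protein-coding genes. No member had a closed promoter peak, against 8.45% of protein-coding genes, and a count of 0 of 46 has an upper bound of 7.71%.

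**Figure D1:**
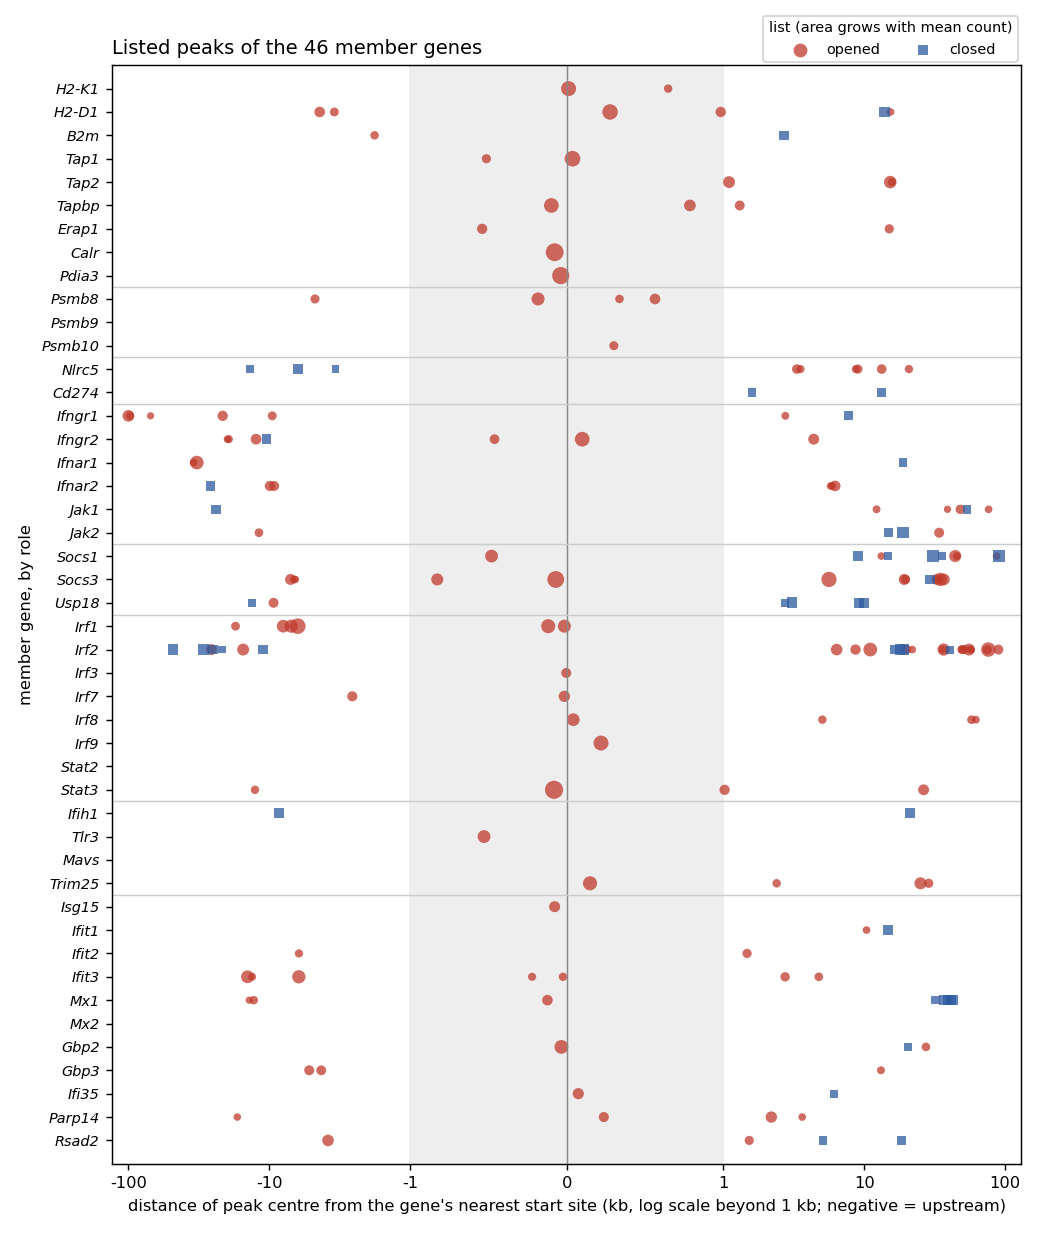
Each row is 1 of the 46 member genes, grouped by role between grey lines, and each point is a listed peak at its centre's distance from the nearest start site (kb, linear to 1 kb and log beyond, negative upstream). Red circles are opened and blue squares closed peaks, with area growing with the mean count, and the grey band (within 1 kb) holds 36 opened and 0 closed peaks.

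The opened share of all listed peaks fell from each distance class to the next, and that of member peaks fell up to 50 kb. Between 1 and 10 kb of a start, 43 of 56 member peaks were opened (76.8%, 64.2 to 85.9%), and 58.8% of all listed peaks. Between 10 and 50 kb, 48 of 80 were opened (60.0%, 49.0 to 70.0%), and 52.3% of all. Beyond 50 kb, 14 of 16 were opened, against 37.1% of all, but those 16 peaks belong to only 5 genes. The members' interval lay above the value of all listed peaks in each class except 10 to 50 kb.

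By role, 20 of 22 peaks of MHC class I and peptide loading genes were opened (90.9%, 72.2 to 97.5%). Transcription factors had 36 of 45 (80.0%, 66.2 to 89.1%), receptors and kinases 25 of 33 (75.8%), and induced effectors 26 of 36 (72.2%). Negative regulators had 18 of 29 (62.1%, 44.0 to 77.3%) and the pair of Nlrc5 and Cd274 had 6 of 11 (54.5%, 28.0 to 78.7%), so the intervals of these last groups include the 50.8% of all peaks. The immunoproteasome, with 5 of 5 (56.6 to 100%), 4 of them from Psmb8, and sensors and adaptors, with 5 of 7, were too few to place. The roles also differ in position. Promoter peaks were 11 of 22 for class I and loading genes, 7 of 45 for transcription factors and 7 of 36 for induced effectors. They were 2 of 33 for receptors and kinases, 3 of 29 for negative regulators and 0 of 11 for Nlrc5 and Cd274. Of all listed promoter peaks 74.3% were opened, so the 50.8% is not a like background for each role.

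**Figure D2:**
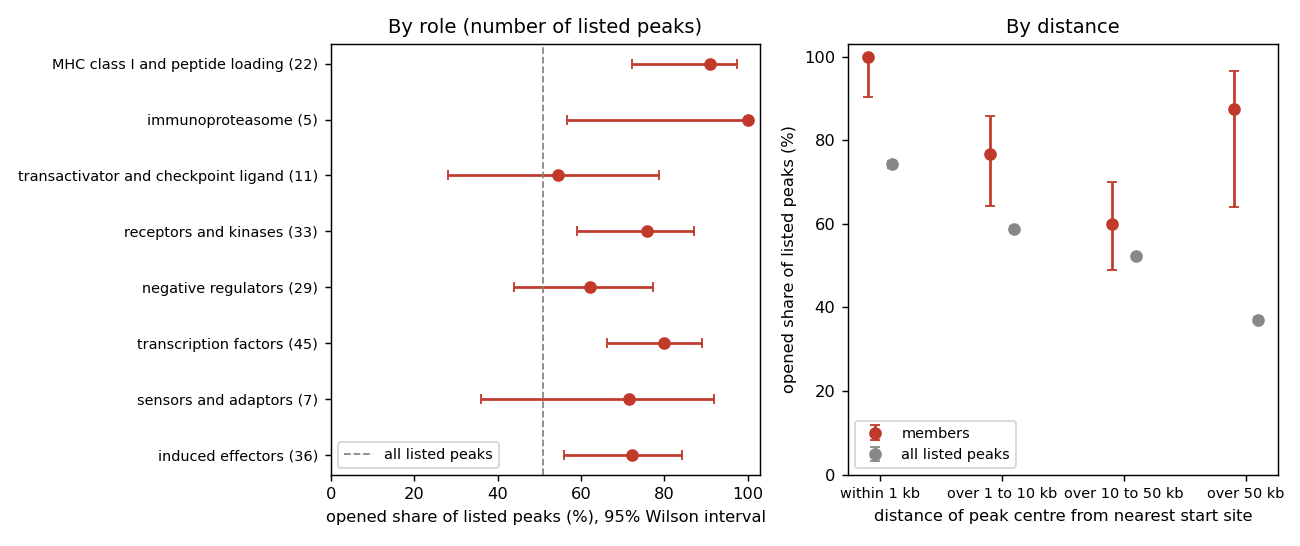
The left panel plots the opened share of listed peaks (%) for each role, with the number of peaks in parentheses, a 95% Wilson interval and a dashed line at the 50.8% of all listed peaks. The right panel plots the same share by distance from the start site for members (red) and all listed peaks (grey), where members stand at 100% within 1 kb and 60.0% between 10 and 50 kb.

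The classical class I heavy chain genes H2-K1 and H2-D1 each had a wide opened peak over the start. For H2-K1 (minus strand) it was chr17:33999923-34000567, 645 bp wide with a mean count of 364, covering exon sequence at the start. A narrower opened peak, 132 bp wide with a mean count of 19.4, lay in an intron 648 bp downstream and holds the IRF repeat printed above. H2-D1 showed the same pair, a 749 bp peak at chr17:35262633-35263381 with a mean count of 423 and an intronic peak 984 bp downstream with a mean count of 61.2. H2-D1 also had 2 opened peaks 4386 and 3453 bp upstream, an opened peak 15406 bp downstream and a closed peak 13940 bp downstream with a mean count of 70.6.

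B2m, the light chain shared by class I molecules, had no promoter peak in either list. Its listed peaks were weak, with an opened one 1788 bp upstream (mean count 19.7) and a closed one 2696 bp downstream (30.1), both in introns of the overlapping gene Patl2.

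The peptide transporter genes Tap1 and Tap2 lie beside the inducible proteasome subunit genes Psmb8 and Psmb9 on chromosome 17. The 9 peaks given to Psmb8, Tap1 and Tap2 between 34186952 and 34219345 were all opened, with a median mean count of 71.0. On this chromosome 54.3% of all listed peaks and 82.6% of listed promoter peaks were opened. Promoter peaks among the 9 were 2 of Tap1 and 3 of Psmb8. Tap1, the first transporter subunit, had a 716 bp peak over its start at chr17:34187232-34187947 with a mean count of 445 and a smaller one 513 bp upstream at 30.6. Psmb9, which encodes another inducible subunit, runs the other way from a start as close as 38 bp to one of Tap1. Both Tap1 promoter peaks therefore also lay within 1 kb of the Psmb9 start, and Psmb9 has no peak of its own only because Tap1's start is nearer. Psmb8 had promoter peaks at 183 bp upstream (mean count 192), 337 bp downstream (20.6) and 564 bp downstream (71.0).

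Tap2, the second transporter subunit, had no promoter peak by the 1 kb rule, with the nearest opened peak centred 1099 bp downstream in an intron (mean count 124). Another opened peak, 15321 bp downstream at chr17:34218586-34219109, had a mean count of 159 and holds the overlapping STAT and IRF matches shown above. Psmb10, the third inducible subunit, on chromosome 8, had a single weak opened peak 301 bp downstream in an exon (28.1).

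The loading factors had some of the strongest peaks among members. Calr, which encodes calreticulin, had 1 peak at chr8:84846561-84847460, 900 bp wide, with a mean count of 780. Pdia3 had 1 peak 38 bp upstream of its start with a mean count of 671, within 1 kb of the start of Catsper2 as well. Tapbp, which encodes tapasin, had opened peaks at 98 bp upstream (336), 787 bp downstream (113) and 1309 bp downstream (49.1). Erap1, which trims peptides, had an opened peak 540 bp upstream (59.0) and another 15079 bp downstream in an intron (32.7). Calr and Pdia3 also act on glycoproteins in general, so they are not particular to antigen presentation.

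**Figure D3:**
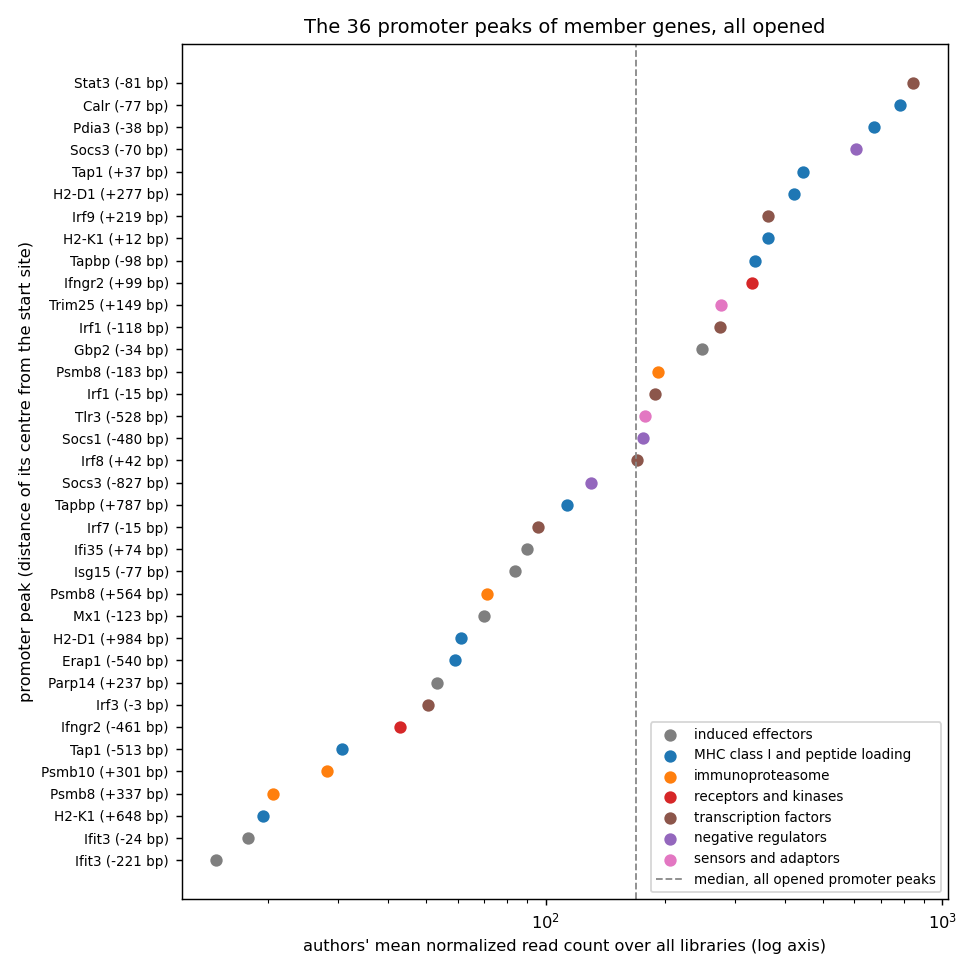
Each point is 1 of the 36 promoter peaks of member genes, placed by the authors' mean normalized read count over all libraries (log axis) and coloured by role, with the gene and the distance of the peak's centre from its start on the vertical axis. Of the points, 18 lie right of the dashed median of all opened promoter peaks (169), led by Stat3 at 844 and Calr at 780, and Ifit3 is lowest at 14.8.

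The promoter peaks of members were about as strong as other opened promoter peaks, with a median mean count of 150 against 169, and 18 of 36 above the latter. Their median width was 414 bp against 485 bp, and their median GC content 60.5% against 63.6%. Distal opened member peaks were also close to the rest, at a median mean count of 32.0 against 32.5. Closed member peaks had a median mean count of 38.6, against 25.8 for all closed peaks, and a maximum of 107.

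Cd274 and Ifih1 were the 2 members with closed peaks only. Cd274, which encodes the checkpoint ligand PD-L1, had a closed peak in an intron 1606 bp downstream of the start (mean count 16.1) and another 13317 bp downstream (27.0). Ifih1, the double-stranded RNA sensor MDA5, had closed peaks 8506 bp upstream (42.8) and 21233 bp downstream in an intron (39.4). Neither gene had a listed promoter peak, although both promoters contain an IRF repeat in RefSeq sequence.

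Nlrc5, the transactivator of class I genes, had 6 opened and 3 closed peaks and none within 1 kb of a start site. The strongest of each kind were alike, at 41.3 for an opened intronic peak 13320 bp downstream and 41.8 for a closed peak 6233 bp upstream. Nlrc5 has 4 coding transcripts with different starts in the annotation, so these distances are to the nearest of them.

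Of the 6 receptor and kinase genes, 1 had a promoter peak, beside the 26.6% of protein-coding genes with an opened one. This was Ifngr2, a subunit of the interferon gamma receptor, with peaks at 99 bp downstream (mean count 331) and 461 bp upstream (43.0), both opened. Ifngr1, which binds the ligand, had 6 opened and 1 closed peaks and none at the promoter, and its strongest was opened and 100 kb upstream (114). Ifnar1 and Ifnar2, the type I receptor, had 2 and 5 opened peaks and 1 closed peak each. The strongest for Ifnar1 was an 881 bp opened peak 32677 bp upstream, in an intron of Gm49625 (236). Jak1 had 4 opened and 2 closed peaks, none with a mean count above 39.4. Jak2 had 2 of each, and its strongest was a closed intronic peak 18875 bp downstream (107), the highest mean count of any closed member peak.

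The negative regulators split. Socs3 had 12 opened peaks and 1 closed, including an 844 bp promoter peak at chr11:117968834-117969677 (mean count 607), another 827 bp upstream (130), and a distal one 5630 bp downstream (393). Socs1 had 5 of each, with its opened promoter peak 480 bp upstream at 176 and closed peaks 30864 bp (93.9) and 90779 bp (94.0) downstream. Usp18, which removes Isg15 from proteins and dampens type I receptor signalling, went the other way, with 5 closed peaks and 1 opened. Its closed peaks ran from 13218 bp upstream to 9993 bp downstream, the strongest in an intron 3075 bp downstream (78.3), and its opened peak lay 9327 bp upstream (48.6).

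Among transcription factors, 6 of 8 had an opened promoter peak, beside the 26.6% of protein-coding genes. Irf1 had 6 opened peaks and no closed one. At its promoter, peaks lay at 118 bp upstream (275) and 15 bp upstream (189) of the nearest start, and its strongest peak was distal, at chr11:53763321-53764151 and 6278 bp upstream (439). Next to it, a peak 6985 bp upstream (196) holds both an IRF repeat and a STAT site, printed above. Irf9, the DNA-binding part of the ISGF3 complex, had 1 peak at 219 bp downstream (364). Irf8 had its promoter peak at 42 bp downstream (170) and 3 weaker opened ones, Irf7 at 15 bp upstream (95.6) with another 2573 bp upstream (53.5), and Irf3 at 3 bp upstream (50.4). The Irf3 peak also lies within 1 kb of the start of Bcl2l12.

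Stat3, which also serves cytokines of the IL-6 family, had the strongest member peak, 894 bp wide at chr11:100939174-100940067 with a mean count of 844, and 3 other opened peaks. Stat2, the partner of Irf9, had no listed peak, and the nearest lay 32911 bp away and belonged to Pan2. Irf2, which competes with Irf1 for its sites, had 27 listed peaks, more than any other member, 18 opened and 9 closed. None lay within 1 kb of its starts. The strongest opened peak was 76111 bp downstream (310) and the strongest closed peak 29282 bp upstream (81.5), so opened and closed peaks were interleaved across this locus.

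Of the sensors and adaptors, Tlr3 had 1 opened peak 528 bp upstream (178), and Trim25, which activates the RNA sensor RIG-I, had its promoter peak at 149 bp downstream (277) and 3 other opened peaks. Mavs, the adaptor on mitochondria, had no listed peak, and the nearest was 23727 bp away.

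Induced effectors had opened promoter peaks at 6 of 11 genes, beside the same 26.6%. Gbp2, a guanylate-binding protein raised by interferon gamma, had the strongest at 34 bp upstream (248). Ifi35 followed at 74 bp downstream (89.9), Isg15, the ubiquitin-like protein, at 77 bp upstream (83.8), Mx1 at 123 bp upstream (69.9) and Parp14 at 237 bp downstream (53.3). The Ifit3 promoter carried 2 weak peaks, at 14.8 and 17.8, while its strong opened peaks were distal, 6169 bp upstream (210) and 14287 bp upstream (174). The second of these lies in an intron of the neighbour Ifit2.

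Other effectors had no listed promoter peak. Ifit1 had an opened peak 10402 bp downstream (9.97) and a closed one 14692 bp downstream (47.2), and Ifit2 had opened peaks 6154 bp upstream (16.5) and 1476 bp downstream (32.0). Gbp3 had 3 opened peaks, all with mean counts up to 50.4. Rsad2, which encodes viperin, had opened peaks 3827 bp upstream (108) and 1529 bp downstream (31.3) and closed ones 5128 bp (16.4) and 18396 bp (39.8) downstream. The 5 closed peaks given to Mx1 lay 32066 to 42639 bp downstream, all in introns of the neighbour Bace2. Mx2 is annotated as a polymorphic pseudogene, so no start site was used, and an opened peak (173) lies 842 bp from its start but nearest to Fam3b.

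Reads from H2-K1, H2-D1, the Ifit, Mx and Gbp genes can be shared with near-identical copies, so their values are uncertain. Without those genes the opened share was 74.8%. Chromosome 11 carries Irf1, Stat3, Socs3, Ifi35 and Trim25, with 27 of 29 peaks opened, but 71.1% of all its 5266 listed peaks and 92.6% of its promoter peaks were opened too. Off chromosome 11, 114 of 159 member peaks were opened (71.7%) against 49.4% of all listed peaks, and all 29 promoter peaks of members were opened against 71.9%. On chromosome 17, which holds the class I cluster, 19 of 20 member peaks were opened against 54.3% of listed peaks. Of those 20, 11 were promoter peaks, all opened, and 82.6% of the listed promoter peaks of that chromosome were opened.

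The members were chosen as genes known for antigen presentation or the interferon response, with earlier results of these data known, and such genes are known for IRF and STAT sites. The motif shares below are therefore a description of these promoters and not independent of the choice. Within the 36 opened promoter peaks, 12 (33.3%, 20.2 to 49.7%) contained an IRF repeat, against 632 of 7693 (8.22%) of all opened promoter peaks. A STAT site was also in 12 (33.3%), against 9.01%. One or the other was in 21 of the 36 (58.3%, 42.2 to 72.9%), from 17 genes, against 16.2% of all opened promoter peaks. With near-identical copies left out, the shares were 32.1% for the IRF repeat and 39.3% for the STAT site, over 28 peaks.

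Other motifs were searched at the same promoters. The TEAD motif GGAATG was in 2 of 36 member promoter peaks (5.56%, 1.54 to 18.1%) and in 19.9% of all opened promoter peaks, which lies above that interval. The FOX motif TGTTTAC was in 0 of 36, with an upper bound of 9.64%, against 4.76%. The NF-kB motif GGGNNTTCC (13.9 against 11.7%), the NF-Y box GATTGG (19.4 against 21.0%), the AP-1 motif TGANTCA (5.56 against 8.18%), the RBPJ motif GTGGGAA (11.1 against 9.49%) and the CRE TGACGTCA (5.56 against 3.28%) had member intervals that include the background. RBPJ is the DNA-binding factor of Notch signalling. A match of letters is not a measured binding site.

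**Figure D4:**
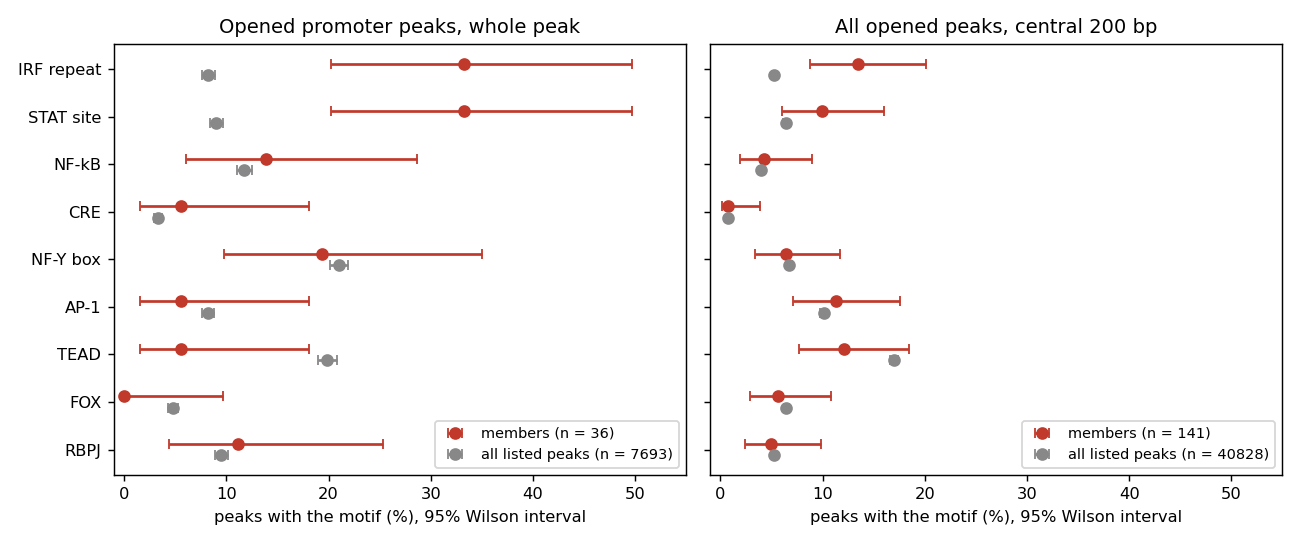
Each point is the share of peaks (%) with a match to a motif, with a 95% Wilson interval, for member peaks (red) and all listed peaks (grey). The left panel covers opened promoter peaks over the whole peak, where the IRF repeat and the STAT site stand at 33.3% in members against 8.22% and 9.01%, and the right panel covers all opened peaks in their central 200 bp, where the IRF repeat stands at 13.5% against 5.23%.

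Over all opened peaks, searched in the central 200 bp, the IRF repeat was in 19 of 141 member peaks (13.5%, 8.80 to 20.1%) against 5.23%. The STAT site was in 14 (9.93%, 6.01 to 16.0%) against 6.39%, an interval that includes the background. In distal opened peaks taken whole, the IRF repeat was in 15 of 105 (14.3%, 8.85 to 22.2%) against 9.35%, and the STAT site in 10 (9.52%, 5.26 to 16.6%) against 11.3%, and both intervals include the background. Closed member peaks had the IRF repeat in 2 of 47 (4.26%) against 4.03% of all closed peaks and the AP-1 motif in 14 (29.8%, 18.7 to 44.0%) against 25.4%. The RBPJ motif was in 4 (8.51%, 3.36 to 19.9%) of these central windows against 3.61%, an interval that includes the background. It was in 7 of 47 whole closed member peaks (14.9%, 7.41 to 27.7%) against 5.68%, where the interval lies above the background. With 9 motifs searched over several sets of peaks and no adjustment for their number, some intervals may miss the background by counting error alone.

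IRF repeats were found in promoter sequence of members with and without an opened promoter peak. RefSeq promoter windows, 250 bases before to 50 after a start (GRCm38.p6), were found for 40 members as 46 windows. An IRF repeat was in 14 of the 46 (30.4%, 19.1 to 44.8%) against 8.56% of all 32851 windows, and a STAT site in 9 (19.6%) against 8.30%. By gene, 6 of 24 members with a promoter peak and 8 of 16 without one had an IRF repeat in a window. Windows from members without a listed promoter peak are shown, as they hold the same repeat in a promoter that is not in either list:
B2m (chr2:122147528-122147576, + strand): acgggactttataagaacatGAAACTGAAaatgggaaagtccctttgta
Cd274 (chr19:29367342-29367390, + strand): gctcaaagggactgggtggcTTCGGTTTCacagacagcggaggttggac
Ifih1 (chr2:62646339-62646387, - strand): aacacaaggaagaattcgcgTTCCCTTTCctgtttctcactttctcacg
Stat2 (chr10:128270257-128270305, + strand): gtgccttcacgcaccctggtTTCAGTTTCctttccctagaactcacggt
Ifit1 (chr19:34640760-34640833, + strand): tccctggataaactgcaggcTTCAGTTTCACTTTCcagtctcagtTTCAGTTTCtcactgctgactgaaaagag
Gbp3 (chr3:142559980-142560034, + strand): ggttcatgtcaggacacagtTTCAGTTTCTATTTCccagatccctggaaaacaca
Rsad2 (chr12:26456543-26456591, - strand): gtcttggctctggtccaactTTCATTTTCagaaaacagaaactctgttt

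Ifit1 holds 3 repeats in this window, and Gbp3 holds 2 that overlap. Stat2 had no listed peak at all, and Cd274 and Ifih1 had only closed ones.

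A wider list covered 69 other pathway genes with a start site. These genes had 264 listed peaks, 163 opened and 101 closed (61.7% opened, against 50.8% of all listed peaks). Of their promoter peaks, 55 were opened and 2 closed, the closed ones at Cd47 and Herc6, beside 74.3% opened of all listed promoter peaks. An opened promoter peak was found at 44 of 69 genes (63.8%, 52.0 to 74.1%), against 26.6% of protein-coding genes. The 4 MHC class II genes Cd74, H2-Aa, H2-Ab1 and H2-Eb1, named after their values were seen, had 15 opened peaks, 6 of them at promoters, and 0 closed. Ifng, the gene of interferon gamma, had 1 opened and 8 closed peaks.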

How the data were processed

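ATAC-seq was done on 8 libraries of sorted GFP-high and GFP-neg cells. Per the labels and the study's methods, the authors mapped reads to mm10 with Bowtie2 (2.3.4.1), called peaks per sample with MACS2, merged them, counted reads per peak and compared the groups with DESeq2 (1.28.1), per the submitters' processing notes. Because calling thresholds chose the peaks, unchanged regions are not in these lists. The deposited signal is the authors' mean normalized read count per peak over all libraries, so it is neither a level per library nor per group. The lists' fold changes, standard errors, statistics and p-values are the authors' comparison and were not used.

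Peaks were given to genes by the nearest protein-coding start site (GENCODE vM21 basic, GRCm38), with promoter peaks within 1 kb. Their sequence came from the RefSeq copy of GRCm38.p6, and 9 motifs were matched exactly on both strands in the central 200 bp or the whole peak. Wilson intervals (95%) and counts were computed with Python 3.11.15, pandas 2.3.3 and numpy 2.4.6. Assignment and motif search were tested on simulated data. All 46 members are accounted for by role, each promoter peak is described, and genes with many peaks are given by counts and strongest peaks. The members and lists were chosen with earlier results of these data known.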

Additional observations from a re-analysis of the deposited data

How the results depend on the processing

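No paired analysis was possible because the lists hold no value per library, and for the same reason no library could be left out and no test was made. The opened share of member peaks was 75.0% as reported, 85.9% within 10 kb of the start site and 84.8% among peaks with a mean count of at least 50. All listed peaks were 74.3% opened within 1 kb and 58.8% between 1 and 10 kb, both above their 50.8% at all distances. Their share at a mean count of at least 50 was not computed. All opened peaks had a higher median mean count (40.7) than all closed ones (25.8). The promoter share of opened member peaks was 25.5% (19.1 to 33.3%), against 18.8% of all opened peaks. For the settings that follow, no share of all opened peaks was computed. The member share was 45.6% within 10 kb, 39.6% with start sites of all gene types, 43.3% at a mean count of at least 50 and 33.3% with a promoter distance of 3 kb. That distance also gave 3 member genes with a closed promoter peak (Cd274, B2m and Usp18) where 1 kb gave 0. The NF-kB motif was in 9.22% of whole opened member peaks and 4.26% of their central 200 bp. These shifts follow from which peaks each setting keeps or counts as promoter peaks, or from the length searched. The other 58 of 66 alternative values, including those without chromosome 11 and without members with near-identical copies, stayed within the interval of the reported share or within 1.5 times the reported count or median. The use of the Mx2 start site (opened share 75.1%) and of promoter peaks shared by several members (28 genes with an opened promoter peak, Psmb9 and Mx2 added) was chosen after seeing the data. A stricter threshold on the authors' p-values was not run because those columns were not used.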
